A study of Mus musculus musculus x Mus musculus castaneus with 8 samples.

Results

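The comparison described here set mouse tail fibroblasts given 5azadC and VX680 together against untreated cells of the same kind. It rests on 4 of the 8 libraries of the series, 2 of cells given both drugs and 2 of untreated cells, and covers all 24421 genes of the count table, of which 12643 had enough reads to be tested. The cells were female and came from an F1 hybrid between Mus musculus and Mus castaneus, so that reads over sequence variants can be traced to one parental copy of a gene, called mus or cas. All groups share that genotype, and the titles of the untreated libraries call it WT. Untreated cells received the solvent DMSO, in a volume matched to that of the treated plates, and no drug. Cells were grown for 72 h in plates of 15 cm, and the drugs went in at 24 h, per the labels. The other libraries, 2 of cells given 5azadC alone and 2 of cells given VX680 alone, entered the model fits, and their values are given for the X chromosome only. The series title asks how DNA methylation and Aurora kinases act together in keeping an X chromosome silent. The labels give neither the drug doses nor whether the cells are a clone. Nor do they tell if the replicates came from different cultures, and p-values therefore reflect the library-to-library spread alone, which may be technical.

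5azadC (5-aza-2'-deoxycytidine) is a cytidine analog that is built into DNA as cells replicate and there traps DNA methyltransferases, so that methylation is lost over cell divisions. VX680 (tozasertib) blocks the Aurora kinases, which run spindle assembly, chromosome alignment and cytokinesis. Cells that pass through mitosis without these kinases often fail to divide and become polyploid, a state that can activate the tumour suppressor p53. In female mammals Xist RNA coats the X chromosome that is to be silenced, and DNA methylation at promoters is among the layers that keep its genes off afterwards. Fibroblasts make and remodel collagen-rich matrix, and they are recognised by genes for fibrillar collagens, small proteoglycans and PDGF receptors.

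The libraries of cells given both drugs held 6908503 and 6946619 reads in genes, and those of untreated cells 11169532 and 7256577. Levels are given as CPM (reads per 1000000 reads, scaled with TMM factors) for the libraries in the order of their replicate numbers. Log2 fold changes are 5azadC+VX680 over untreated ± SE, with n = 2 libraries a group, and adjusted p-values come from edgeR's quasi-likelihood test with Benjamini-Hochberg adjustment over all 12643 genes. CPM is not corrected for gene length, so levels are compared between groups and not between genes. Fibroblast markers were present in both groups, and 11 of 12 had enough reads to be tested. Summed, they came to 15680.2 and 15138 CPM with both drugs and 35351 and 40062 CPM in untreated cells. Not all went the same way: 7 of the 11 tested fell and 3, Thy1, Vim and S100a4, rose. These are 27.3% higher and 63.6% lower, beside 28.4% and 27.3% of all tested genes. The marker gene Lum (lumican) was low, at 0.562 and 0.552 CPM with both drugs and 1.90 and 1.17 CPM in untreated cells.

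Defining markers of 8 other cell types were checked in the same libraries. Of 66 such genes in the table, 12 had no read in any of the 4 libraries, among them the keratinocyte gene Krt1, the T cell gene Cd3e, the melanocyte gene Tyr and the adipocyte gene Lep. The leukocyte gene Ptprc had 2 reads over the treated libraries and no read in untreated cells. Summed levels of the keratinocyte list were 1.83 and 2.35 CPM with both drugs and 1.36 and 3.08 CPM in untreated cells, and those of the leukocyte list 26.01 and 19.7 CPM with both drugs and 19.13 and 16.3 CPM in untreated cells. The skeletal muscle, chondrocyte and melanocyte lists likewise stayed under 34 CPM in every library. The adipocyte list came to 58.9 and 65.8 CPM with both drugs and 90.1 and 98.9 CPM in untreated cells. The endothelial list reached 197 and 176 CPM with both drugs and 126 and 143 CPM in untreated cells, of which the VEGF receptor gene Flt1 made up 71.0 and 62.2 CPM with both drugs and 11.1 and 12.6 CPM in untreated cells. The neural list reached 479 and 459.8 CPM with both drugs and 238 and 243 CPM in untreated cells, with 294 and 271 against 51.5 and 43.2 CPM from Nes, which encodes the filament protein nestin. Of the 25 such markers tested, 9 rose and 5 fell, and their part in the results below was not tested. The 45S ribosomal RNA precursor Rn45s took 3.45% and 3.71% of reads with both drugs, against 1.65% and 1.73% in untreated cells, and its part was not tested either. Smooth muscle contractile genes, described below, were kept apart from these 8 types. Their sum was 5192 and 5115 CPM with both drugs and 4317 and 4601 CPM in untreated cells. In bulk RNA, fewer cells of a type and less RNA per cell cannot be told apart.

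With both drugs 7040 genes changed, 55.7% of those tested. Of these, 3586 rose (28.4% of tested genes) and 3454 fell (27.3%). At least 2-fold changes were called in 1568 genes that rose and 1336 that fell, which is 12.4% and 10.6% of tested genes, and 390 rose and 154 fell at least 8-fold. The values of the groups did not overlap in 78.1% of tested genes. The median log2 fold change of all genes was 0.01. Scaling with the factors of the authors' normalized table in place of TMM moved it by 0.102, to 0.12, and gave 4099 rises and 2888 falls. Counts of each gene group are given below with their shares of the group's tested genes, which are read against these 28.4% and 27.3%. In any list, genes low in a group could pass the filter on low values through other libraries. Their calls are no independent support for a direction.

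**Figure D1:**
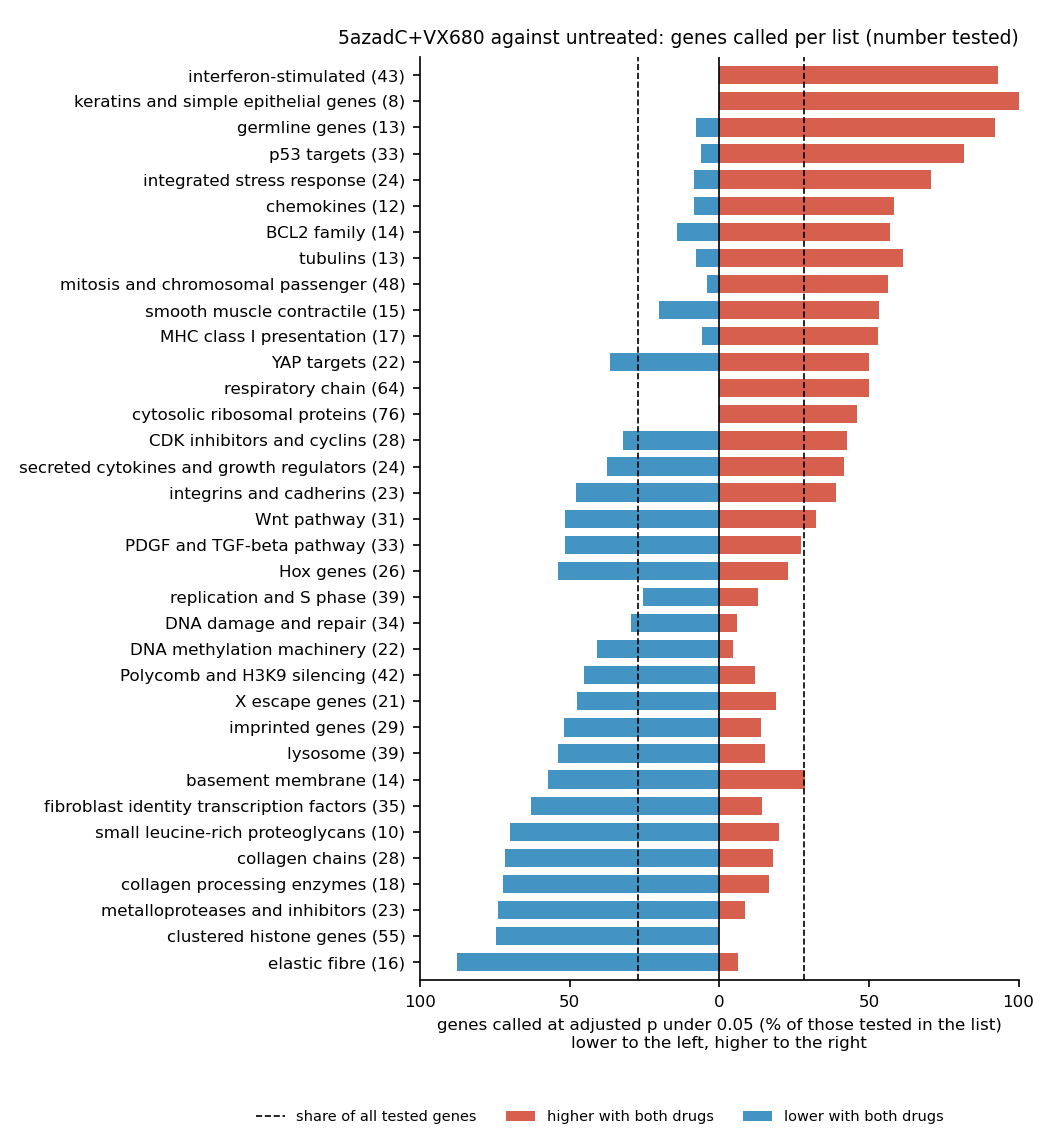
Share of tested genes called higher (red, to the right) or lower (blue, to the left) with 5azadC+VX680 against untreated cells in 35 gene lists, at an adjusted p under 0.05, in percent of the tested genes of each list (number in brackets). Dashed lines mark the shares among all tested genes, 28.4% higher and 27.3% lower. Interferon-stimulated, simple epithelial and germline genes and p53 targets reach far to the right, and elastic fibre, histone and collagen genes far to the left. Many of the simple epithelial and germline genes, and some interferon-stimulated ones, were low in untreated cells. Those passed the filter on low values through other libraries, so their shares are no independent support for a direction.

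Extracellular matrix genes made up 6 of the 8 called genes that lost most CPM. Collagen chain genes together came to 12333 and 12436 CPM with both drugs, against 45227 and 50188 CPM in untreated cells, a 3.85-fold lower sum. Of 28 tested chains 20 fell and 5 rose (17.9% higher, 71.4% lower), with a median log2 fold change of -1.18 against 0.01 for all genes. The 6 were 4 collagen genes, the collagen cross-linking gene Lox and Sparc, whose product binds collagen.

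Type I collagen is a trimer of the products of Col1a1 and Col1a2. Col1a1 (chromosome 11) had 1929 and 1839.6 CPM with both drugs, against 12429 and 15550.1 CPM in untreated cells. Col1a2 (chromosome 6) had 1540.1 and 1609 CPM with both drugs and 9279 and 9887 CPM in untreated cells. For Col3a1 (chromosome 1), the type III chain found beside type I in skin, the levels were 382 and 391 CPM with both drugs and 4778 and 4653 CPM in untreated cells. In all of these genes both treated libraries lay below both untreated libraries, with log2 fold changes of -2.89 ± 0.14, -2.61 ± 0.12 and -3.61 ± 0.18 (adjusted p = 3.28e-09, 2.11e-09 and 4.68e-09). The microfibrillar chain gene Col6a3 fell as well, to 516 and 496 CPM with both drugs, against 2537 and 2816 CPM in untreated cells (-2.40 ± 0.10, adjusted p = 7.77e-10). Col14a1, a fibril-associated chain, and Col11a1, a fibrillar chain of cartilage, had log2 fold changes of -5.46 and -4.63. The basement membrane chain genes Col4a1 and Col4a2 had smaller ones, -0.52 ± 0.09 and -0.88 ± 0.09. Col10a1, the chain of hypertrophic cartilage, rose: it had 30.9 and 33.4 CPM with both drugs against 1.99 and 3.22 CPM in untreated cells (3.68 ± 0.22). Col18a1, the precursor of endostatin, and Col7a1, the anchoring fibril chain, rose too (2.13 ± 0.18 and 2.82 ± 0.36). Col5a3, a chain of type V collagen, had 129 and 124 CPM with both drugs and 141 and 181 CPM in untreated cells and did not pass (adjusted p = 0.0703). It was called lower with no filter on low counts (adjusted p = 0.00438), in a fit of only the 4 libraries compared (0.0218) and with the replicate block (0.0329). Without untreated replicate 1 its log2 fold change was -0.53.

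Most genes that process collagen fell. Lox, which starts the cross-links between collagen and elastin molecules, had 357 and 334 CPM with both drugs, against 4679 and 5125 CPM in untreated cells (-3.83 ± 0.13, adjusted p = 1.18e-10). Both treated libraries lay far below both untreated ones. Of 18 processing genes 13 fell and 3 rose (16.7% higher, 72.2% lower). The procollagen peptidase gene Bmp1 had a log2 fold change of -1.25 ± 0.09, and Pcolce, which encodes an enhancer of that enzyme, one of -1.66 ± 0.09. Loxl4, a paralog of Lox, had 47.1 and 56.6 CPM with both drugs and 11.7 and 9.53 CPM in untreated cells (2.27 ± 0.16, adjusted p = 5.91e-08). The other rises were Pcolce2 (1.45 ± 0.12) and the transglutaminase gene Tgm2 (1.03 ± 0.15).

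Small leucine-rich proteoglycans bind collagen fibrils and set their width. Among 10 tested members 7 fell and 2 rose (20% higher, 70% lower), with a median log2 fold change of -3.12; the number of rises was 1 without either both-drug replicate or either untreated replicate. Aspn (asporin, chromosome 13) had 2.39 and 2.35 CPM with both drugs, against 315 and 247 CPM in untreated cells, and Ogn (osteoglycin) had 4.92 and 2.90 against 240 and 181 CPM. For Bgn (biglycan, X-linked) the values were 477 and 462 CPM with both drugs and 1809.6 and 2092 CPM in untreated cells. All 3 genes separated the groups without overlap, at -6.88 ± 0.35, -5.75 ± 0.21 and -2.05 ± 0.12 on the log2 scale (adjusted p = 4.24e-09, 2.45e-10 and 1.35e-08). Kera (keratocan), with 8.79 and 5.57 CPM in untreated cells, had 0 reads in both treated libraries, at least 36.2-fold lower against a floor of 3 counts over the group (adjusted p = 8.5e-05, and 0.148 with DESeq2). Podnl1 rose (1.13 ± 0.16, adjusted p = 3.8e-05).

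Elastic fibre genes fell in 14 of 16 (6.25% higher, 87.5% lower), with a median log2 fold change of -1.40. The 1 rise was Ltbp2, a latent TGF-beta binding protein gene (1.63 ± 0.11); rises numbered 2 without either both-drug replicate or untreated replicate 2. Eln, the elastin gene (chromosome 5), had 0.984 and 0.690 CPM with both drugs, against 71.1 and 78.1 CPM in untreated cells (-6.45 ± 0.80, adjusted p = 1.35e-05). The microfibril genes Fbn1 and Fbn2 had log2 fold changes of -1.25 and -4.28. Emilin1, whose product sits where elastin meets microfibrils, had 107 and 117 CPM with both drugs and 475 and 473 CPM in untreated cells. In both genes with levels given here the groups lay apart. Fbln2 did not pass, at 565 and 571 CPM with both drugs against 559 and 608 CPM in untreated cells (adjusted p = 0.756). Fibronectin (Fn1), on which much of the matrix assembles, was not called either, with 3842 and 3520.4 CPM with both drugs and 3644 and 4311 CPM in untreated cells (adjusted p = 0.377).

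At the basement membrane, 8 of 14 tested genes fell and 4 rose (28.6% higher, 57.1% lower), and the rises were 2 without untreated replicate 1. Hmcn1 (hemicentin 1, chromosome 1) had 0.703 and 1.93 CPM with both drugs, against 528 and 513 CPM in untreated cells (-8.60 ± 0.46, adjusted p = 5.97e-09). Lamb2 and Lamc1, of widely expressed laminins, fell (-1.80 ± 0.10 and -0.98 ± 0.08). Among metalloproteases and their inhibitors 17 of 23 fell (8.70% higher, 73.9% lower), with a median log2 fold change of -1.36. Mmp14, a membrane collagenase gene, had 406 and 377 CPM with both drugs and 1174 and 1325 CPM in untreated cells, and the secreted metalloprotease gene Adamts17 had 1.97 and 0.828 against 115 and 106 CPM. Timp1 and Timp3, whose products inhibit such enzymes, were the 2 members that rose (2.08 ± 0.13 and 0.64 ± 0.09). Fap, a surface protease gene of activated fibroblasts, was among the 12 deepest falls of genes averaging 1 or more log2 CPM whose groups did not overlap, with 0 and 0.138 CPM with both drugs and 12.97 and 6.89 CPM in untreated cells, a share of reads 153-fold lower on 1 read over the treated libraries (exact 95% counting interval 27.1 to 6068, adjusted p = 3.34e-06).

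**Figure D2:**
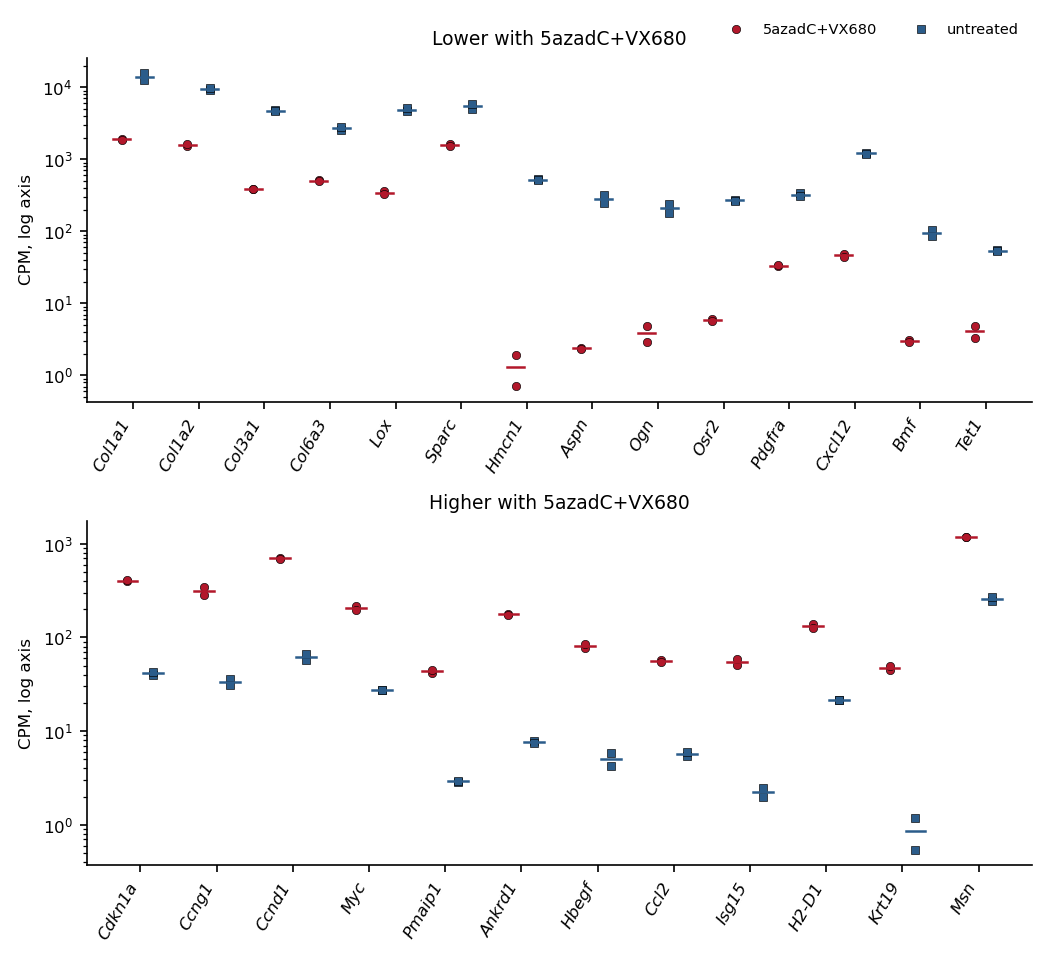
Levels of 14 genes that were lower (upper panel) and 12 that were higher (lower panel) with 5azadC+VX680, as CPM on a log axis. Red circles are the 2 libraries of cells given both drugs, blue squares the 2 untreated libraries, and short lines the group means. In all 26 genes the libraries of the groups do not overlap, which choosing them among changed genes made likely. Of all tested genes 78.1% had no overlap.

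Transcription factors that mark mesenchymal and fibroblast identity fell in 22 of 35 and rose in 5 (14.3% higher, 62.9% lower), and the rises came to 2 without both-drug replicate 2 and 3 without both-drug replicate 1 or untreated replicate 1. Osr2, a zinc finger factor of limb and palate mesenchyme, had 6.05 and 5.66 CPM with both drugs, against 274 and 267 CPM in untreated cells (-5.53 ± 0.29, adjusted p = 5.49e-09). Ebf1, a factor of mesenchymal and B cells, had 71.3 and 59.9 against 330.2 and 326 CPM, and the forkhead gene Foxc1 64.4 and 61.8 against 287 and 321 CPM, in the same order of groups. Foxc2, the close paralog of Foxc1, was higher instead, with 32.3 and 30.9 CPM with both drugs and 3.17 and 3.37 CPM in untreated cells (3.27 ± 0.24, adjusted p = 9.22e-08). Twist1, which acts in mesenchyme formation, had a smaller fall of -0.45 ± 0.10. Runx1 rose (1.03 ± 0.12). Runx2, the bone factor gene, did not pass, at 81.1 and 77.8 CPM with both drugs against 74.0 and 106 CPM in untreated cells (adjusted p = 0.348, and 0.0205 without untreated replicate 1).

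Hox genes record the position along the body axis from which fibroblasts were taken, and tail cells express posterior members. Of 26 tested, 14 fell and 6 rose (23.1% higher, 53.8% lower), and rises were 2 without untreated replicate 1. Hoxc13, a posterior gene, had 107 and 90.4 CPM with both drugs, against 273 and 319 CPM in untreated cells (-1.58 ± 0.13, adjusted p = 2.9e-07). Its neighbour Hoxc12 had 38.8 and 30.8 CPM with both drugs and 152 and 182 CPM in untreated cells. Both genes were lower in each treated library than in either untreated one. Hoxb9 did not pass, at 104 and 82.4 CPM with both drugs and 82.2 and 84.6 CPM in untreated cells (adjusted p = 0.263), and Hoxb7 rose (1.38 ± 0.24).

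The receptor genes for platelet-derived growth factor, a mitogen of fibroblasts, fell. Pdgfra had 32.6 and 34.4 CPM with both drugs, against 342 and 305 CPM in untreated cells, and Pdgfrb 118 and 111 against 487 and 477 CPM. Their log2 fold changes were -3.27 ± 0.17 and -2.08 ± 0.09 (adjusted p = 5.03e-09 and 1.33e-09), while the ligand gene Pdgfa rose (1.29 ± 0.16). Over the PDGF and TGF-beta list 17 of 33 fell and 9 rose (27.3% higher, 51.5% lower). Postn (periostin), a matrix gene induced by TGF-beta, fell (-2.04 ± 0.15).

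In the Wnt pathway 16 of 31 genes fell and 10 rose (32.3% higher, 51.6% lower), and the rises numbered 5 without both-drug replicate 1 and 6 without either untreated replicate. The Wnt receptor gene Fzd1 had 126 and 115 CPM with both drugs, against 668 and 691 CPM in untreated cells, and its paralog Fzd2 175 and 177 against 572 and 602 CPM. Rspo2, whose product amplifies Wnt signals, had 6.19 and 8.56 CPM with both drugs and 148 and 161 CPM in untreated cells (-4.38 ± 0.24, adjusted p = 6.72e-09). Each of these was lower in both treated libraries. Dkk3 fell too (-2.41 ± 0.14), and the ligand gene Wnt10b rose (1.35 ± 0.21).

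Among adhesion receptors 11 of 23 integrin and cadherin genes fell and 9 rose (39.1% higher, 47.8% lower), and rises numbered 4 without both-drug replicate 1 and 5 without untreated replicate 1. Cdh11, the cadherin gene of fibroblasts, had 96.4 and 89.3 CPM with both drugs, against 609.8 and 588 CPM in untreated cells (-2.69 ± 0.14, adjusted p = 6.21e-09). The collagen receptor gene Itga11 fell (-2.54 ± 0.20), and the laminin receptor genes Itga6 and Itga7 rose (2.09 ± 0.19 and 2.33 ± 0.28). Itgb7, known from lymphocytes, had 27.8 and 29.7 CPM with both drugs against 0.907 and 1.17 CPM in untreated cells.

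Secreted signals moved in both directions. Cxcl12 (chromosome 6), the chemokine by which stromal cells hold blood stem cells in place, had 49.2 and 43.7 CPM with both drugs, against 1216 and 1193 CPM in untreated cells (-4.70 ± 0.10, adjusted p = 5.09e-12), the smallest p of the 12643 genes tested. The inflammatory chemokine genes Ccl2 and Cxcl10 rose: Ccl2 had 57.4 and 54.1 CPM with both drugs and 5.44 and 6.01 CPM in untreated cells, and Cxcl10 20.9 and 16.01 against 0.725 and 0.586 CPM. In all, 7 of 12 tested chemokine genes rose and Cxcl12 fell (58.3% higher, 8.33% lower), of 20 listed. Genes as low in untreated cells as Cxcl10 passed the filter on low values through other libraries. For them the count is no independent support for their direction. Of 24 cytokines and growth regulators 10 rose and 9 fell (41.7% higher, 37.5% lower). Hbegf, an EGF receptor ligand gene, had 77.2 and 86.1 CPM with both drugs, against 5.89 and 4.25 CPM in untreated cells. It was higher in each treated library (3.96 ± 0.16, adjusted p = 7.36e-10). The vessel growth genes Angpt1 and Vegfc and the epithelial growth factor gene Fgf10 fell (-4.05 ± 0.17, -1.92 ± 0.14 and -2.59 ± 0.18). Vegfa had 74.7 and 71.2 CPM with both drugs and 67.1 and 74.2 CPM in untreated cells and did not pass (adjusted p = 0.698).

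Of 15 smooth muscle contractile genes 8 rose and 3 fell (53.3% higher, 20% lower), and the falls were 1 without either both-drug replicate or untreated replicate 2. Cnn1 (calponin) had 43.3 and 48.4 CPM with both drugs, against 5.98 and 4.40 CPM in untreated cells, and the smooth muscle actin gene Actg2 179.5 and 186 against 49.6 and 53.4 CPM (3.10 ± 0.17 and 1.83 ± 0.09). Mylk, which encodes the kinase that activates smooth muscle myosin, had 17.9 and 17.1 CPM with both drugs, against 145 and 159 CPM in untreated cells (-3.12 ± 0.16, adjusted p = 4.89e-09). Acta2, the actin gene of myofibroblasts, did not pass, at 975 and 968 CPM with both drugs and 967 and 1043 CPM in untreated cells (adjusted p = 0.719). Of 8 tested genes of striated muscle 4 rose and 0 fell (50% higher, 0% lower). Of the 8, 3 had at most 3 reads over the untreated libraries and passed the filter on low values through other libraries. Among the rises was Tnnt2 (chromosome 1), the cardiac troponin T gene. It had 12.9 and 11.9 CPM with both drugs against 0 reads in untreated cells, at least 73.8-fold higher (adjusted p = 2.53e-06).

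Among 22 target genes of the mechanosensitive factor YAP 11 rose and 8 fell (50% higher, 36.4% lower). Ankrd1 (chromosome 19), a YAP target of stretched cells, had 179 and 173 CPM with both drugs, against 7.80 and 7.48 CPM in untreated cells (4.52 ± 0.14, adjusted p = 8.17e-11). Ctgf, which encodes a matricellular growth factor, had 305 and 270.2 CPM with both drugs and 53.9 and 63.0 CPM in untreated cells. In both genes each treated library was higher, whereas Arhgef17 and Tgfb2 fell (-0.89 ± 0.08 and -0.98 ± 0.13). The genes that gained most CPM, after Rn45s, included several of the cytoskeleton and nuclear lamina: Vim (0.84 ± 0.09), Actb (0.74 ± 0.09), the non-muscle myosin gene Myh9 (0.93 ± 0.08), Plec (0.92 ± 0.11) and Lmna (0.83 ± 0.08). Malat1, a nuclear RNA, and Marcks, which encodes a membrane and actin linker, were among the 8 genes that lost most (-0.89 ± 0.09 and -1.86 ± 0.17).

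Genes of simple epithelia rose in treated cells. All 8 tested genes of that list did, 4 of which had 0 reads in untreated cells, and 12 listed genes were too low to test. These genes passed the filter on low values through the treated libraries, so the count is no independent support for their direction. Krt19 (chromosome 11) had 45.0 and 49.4 CPM with both drugs, against 0.544 and 1.17 CPM in untreated cells (5.87 ± 0.28, adjusted p = 2.89e-09), and Krt80 had 14.9 and 19.04 against 0.0907 and 0.586 CPM. Krt18, with 0 reads in untreated cells, had 8.58 and 10.3 CPM with both drugs, at least 56.4-fold higher (adjusted p = 2.37e-05). Of the keratins of stratified skin, Krt5 had 1 read over the treated libraries and none in untreated cells, and Krt10 did not pass, at 1.27 and 1.66 CPM with both drugs and 1.36 and 2.49 CPM in untreated cells (adjusted p = 0.615).

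The p53 protein drives genes of cell cycle arrest, repair and cell death. Of 33 p53 targets 27 rose and 2 fell (81.8% higher, 6.06% lower), with a median log2 fold change of 0.95; the falls numbered 1 without both-drug replicate 1 or either untreated replicate. Cdkn1a (chromosome 17), the gene of the cyclin kinase inhibitor p21, had 399.7 and 407 CPM with both drugs, against 40.0 and 42.5 CPM in untreated cells, and Ccng1, the gene of cyclin G1, 286 and 341 against 36.4 and 31.4 CPM. Both genes were higher in each treated library (3.29 ± 0.10 and 3.20 ± 0.12, adjusted p = 4.15e-11 and 4.77e-10). Phlda3 rose (2.22 ± 0.10), as did the X-linked death receptor gene Eda2r (3.82 ± 0.31), and Sesn1 fell (-1.93 ± 0.22).

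Members of the BCL2 family decide on cell death at the mitochondrion, and 8 of 14 tested rose and 2 fell (57.1% higher, 14.3% lower). Pmaip1 (Noxa), which promotes death and is a p53 target, had 42.0 and 44.8 CPM with both drugs and 2.90 and 2.93 CPM in untreated cells. Bax, of the same kind, had 153 and 158 against 54.9 and 64.3 CPM. Both rose (3.89 ± 0.20 and 1.39 ± 0.10). The falls were Bmf and Bcl2l11 (Bim), which promote death after loss of adhesion or of growth factors. Bmf had 3.09 and 2.90 CPM with both drugs, against 103 and 87.4 CPM in untreated cells (-4.99 ± 0.19, adjusted p = 4.26e-10), and Bcl2l11 23.9 and 23.05 against 81.1 and 85.5 CPM. Mcl1, a survival gene, had 233 and 230.5 CPM with both drugs and 202 and 222 CPM in untreated cells and did not pass (adjusted p = 0.357).

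Of 28 genes for cyclins and their kinase inhibitors 12 rose and 9 fell (42.9% higher, 32.1% lower). The D-type cyclin gene Ccnd1 (chromosome 7) had 706 and 688 CPM with both drugs, against 57.8 and 66.3 CPM in untreated cells (3.50 ± 0.12, adjusted p = 1.21e-10). Myc, a growth-promoting factor gene, had 215 and 198 CPM with both drugs and 27.3 and 27.4 CPM in untreated cells (2.92 ± 0.14). Cdkn1b (p27) and Cdkn2c (p18), other kinase inhibitor genes, fell (-1.63 ± 0.10 and -0.98 ± 0.09). Cdkn2a, which encodes inhibitors linked to senescence, did not pass, at 348 and 342 CPM with both drugs and 316 and 323 CPM in untreated cells (adjusted p = 0.263), but with the authors' scaling it was called higher (0.21 on the log2 scale, adjusted p = 0.0384).

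Of 48 genes of mitosis and the chromosomal passenger complex 27 rose and 2 fell (56.2% higher, 4.17% lower), with a median log2 fold change of 0.33; the falls came to 0 without both-drug replicate 1 and 1 without both-drug replicate 2 or either untreated replicate. Aurka, which encodes a kinase that VX680 blocks, had 166 and 164 CPM with both drugs, against 92.8 and 79.4 CPM in untreated cells (0.93 ± 0.10, adjusted p = 4e-06). Aurkb, the kinase gene of the passenger complex, had 123 and 118 CPM with both drugs and 104 and 86.9 CPM in untreated cells (0.33 ± 0.10, adjusted p = 0.0155), and its adjusted p was 0.0985 and 0.0523 without both-drug replicate 1 and 2 and 0.161 without untreated replicate 2. Cdc20, an activator of the anaphase-promoting complex, and Cenpa, the centromeric histone gene, rose (1.04 ± 0.10 and 0.89 ± 0.09). Top2a and the spindle motor gene Kif11 did not pass (adjusted p = 0.937 and 0.557).

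Of 39 replication genes 5 rose and 10 fell, shares of 12.8% and 25.6%, with a median log2 fold change of -0.05, which is smaller than the shift between scalings. Mcm6, a helicase subunit gene, had 132 and 134 CPM with both drugs, against 221 and 189 CPM in untreated cells (-0.62 ± 0.10, adjusted p = 8.48e-05). Rrm2, which acts in making deoxynucleotides, had 387 and 352 CPM with both drugs, against 172 and 182 CPM in untreated cells (1.06 ± 0.09, adjusted p = 3.5e-07). Clustered histone genes, whose RNA is made in S phase, fell in 41 of 55 (0% higher, 74.5% lower) with a median log2 fold change of -0.69. Hist1h2ae had 79.6 and 76.3 CPM with both drugs, against 135 and 142 CPM in untreated cells (-0.83 ± 0.09, adjusted p = 4.61e-06). Hist1h1a, a linker histone gene, did not pass, at 295 and 280.4 CPM with both drugs and 289.5 and 262 CPM in untreated cells (adjusted p = 0.6). Histone copies share much of their sequence, so counts of single copies are uncertain. Of 34 DNA damage and repair genes 2 rose and 10 fell (5.88% higher, 29.4% lower), a share of falls near that of all tested genes, and Brca2 was 1 of them (-0.72 ± 0.12). Rises numbered 4 with the authors' scaling, and they came to 0 without untreated replicate 1 and 1 without either both-drug replicate or untreated replicate 2.

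Of 24 genes of the integrated stress response 17 rose and 2 fell (70.8% higher, 8.33% lower), and the falls were 1 without both-drug replicate 2. Psat1, of serine synthesis, had 166 and 180.5 CPM with both drugs, against 65.2 and 62.6 CPM in untreated cells (1.44 ± 0.10). The stress factor gene Atf3 had 14.1 and 13.9 CPM with both drugs and 0.997 and 1.76 CPM in untreated cells, whereas Atf5 fell (-1.12 ± 0.12). In the respiratory chain 32 of 64 genes rose (50% higher, 0% lower) with a median log2 fold change of 0.41. Atp5b, of the ATP synthase, had 1398 and 1361 CPM with both drugs and 673 and 691 CPM in untreated cells (1.02 ± 0.08). Cytosolic ribosomal protein genes rose in 35 of 76 (46.1% higher, 0% lower), with a median of 0.52, and that number of rises was 19 without both-drug replicate 1 and 21 without both-drug replicate 2 or untreated replicate 2. These genes have many processed copies in the genome, so their counts are uncertain. Tubulin genes rose in 8 of 13 (61.5% higher, 7.69% lower), among them Tubb6 (1.23 ± 0.08) and Tuba4a (1.61 ± 0.11). The 1 fall, of Tubb5 (-0.21 ± 0.08), was no longer called with the authors' scaling (adjusted p = 0.235), with the replicate block (0.0667), without either both-drug replicate (0.12 and 0.155) or without untreated replicate 2 (0.0987).

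Lysosomal genes fell in 21 of 39 and rose in 6 (15.4% higher, 53.8% lower). Ctsk, the collagen-degrading cathepsin K gene, and Gaa, the acid glucosidase gene, fell (-2.27 ± 0.23 and -1.02 ± 0.09), and the cathepsin B gene Ctsb rose (0.71 ± 0.09). Of 31 sterol and fatty acid synthesis genes 3 rose and 7 fell (9.68% higher, 22.6% lower), and rises were 1 without both-drug replicate 2. The desaturase gene Scd2 fell (-1.07 ± 0.09).

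**Figure D3:**
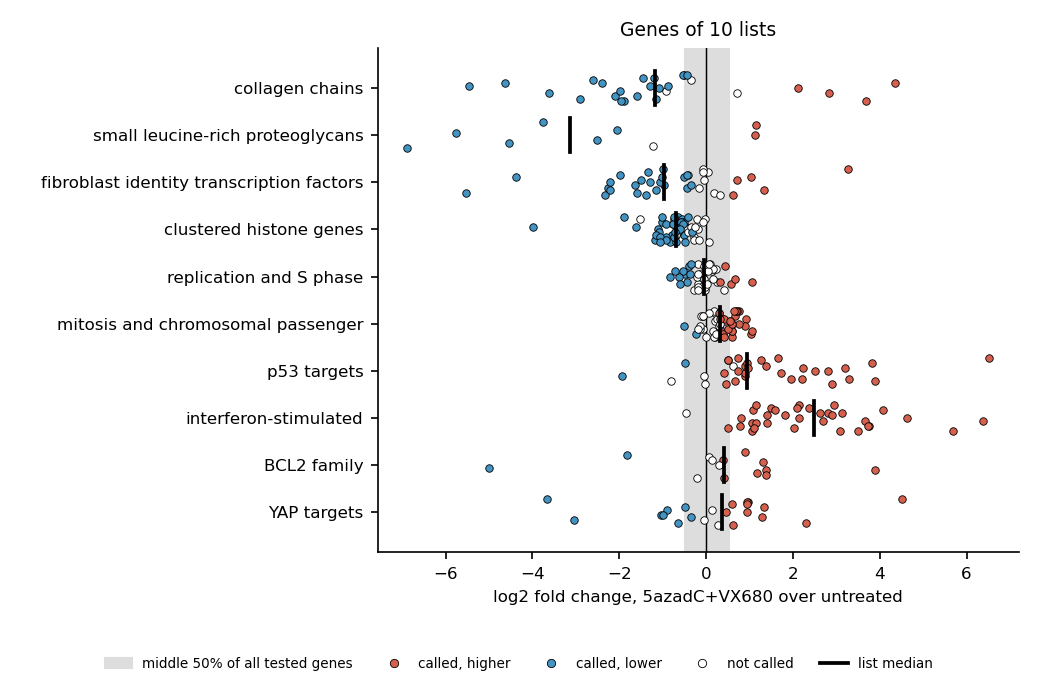
Log2 fold changes of 5azadC+VX680 over untreated cells for 317 genes of 10 lists (red called higher, blue called lower, white not called, points spread vertically for sight). Black bars are list medians and the grey band holds the middle 50% of all tested genes; 10 genes with 3 or fewer reads in a group are left out of the points. Collagen, proteoglycan and fibroblast factor genes reach far to the left, replication genes stay near 0 and interferon-stimulated genes reach far to the right.

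Interferon-stimulated genes encode antiviral and antigen-presenting proteins. Loss of DNA methylation is known to release endogenous retroviral RNA in many cell types, and double-stranded RNA can switch such genes on. Of 43 tested 40 rose (93.0% higher, 0% lower), with a median log2 fold change of 2.48 when the 3 genes with 0 reads in untreated cells are put at their bound. In all, 8 of the 43 had 3 or fewer reads in a group and passed the filter on low values through other libraries. Others with slightly more reads, such as Usp18 below, were also too low in untreated cells to pass through those libraries. For all such genes the count is no independent support for their direction. Isg15 (chromosome 4), which encodes a ubiquitin-like protein, had 50.3 and 58.5 CPM with both drugs, against 1.99 and 2.49 CPM in untreated cells. Usp18, the gene of its protease, had 17.2 and 22.8 CPM with both drugs and 0.272 and 0.147 CPM in untreated cells. Both genes were higher in each treated library (4.63 ± 0.36 and 6.39 ± 0.56, adjusted p = 1.75e-07 and 5.67e-07), and Ifit1 rose as well (3.08 ± 0.29). Ifit2, of the same family as Ifit1, did not pass, at 23.8 and 25.1 CPM with both drugs and 34.9 and 32.4 CPM in untreated cells (adjusted p = 0.0764), but it was called lower with no filter on low counts (0.0117) and in a fit of only the 4 libraries compared (0.012). Of 17 genes that sense nucleic acids or receive interferon 1 rose and 4 fell (5.88% higher, 23.5% lower), the receptor genes Ifnar1 and Ifnar2 among the falls (-0.61 ± 0.11 and -0.68 ± 0.12).

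MHC class I presentation genes rose in 9 of 17 (52.9% higher, 5.88% lower), and the 1 fall was Tapbp, the gene of the peptide-loading factor tapasin (-0.62 ± 0.16). The heavy chain gene H2-D1 had 138 and 127 CPM with both drugs, against 21.8 and 21.5 CPM in untreated cells (2.61 ± 0.19, adjusted p = 9.62e-08), and the peptide transporter gene Tap1 had 24.7 and 26.2 against 5.71 and 6.60 CPM. B2m, the light chain of the same complex, did not pass, at 134 and 133 CPM with both drugs and 145 and 106 CPM in untreated cells (adjusted p = 0.666). The heavy chain genes are near-identical, so reads may be split among them.

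Germline genes are a textbook target of promoter methylation. Of 37 genes counted, 13 had enough reads, and 12 of these rose and 1, Brdt, fell (-1.61 ± 0.37). Untreated cells had at most 3 reads of 9 of the 13, which passed the filter through the treated libraries, and the other 24 genes were too low to test. Piwil2, of the piRNA pathway, had 2.67 and 5.80 CPM with both drugs, against 0.0907 and 0 CPM in untreated cells, where a single read was counted, a ratio of 75.8 (exact 95% interval 13.1 to 3044). Tex19.1 had 7.31 and 4.69 CPM with both drugs against 0 reads in untreated cells, at least 35.6-fold higher (adjusted p = 8.04e-06). Imprinted genes, whose parental copies differ in methylation, fell in 15 of 29 and rose in 4 (13.8% higher, 51.7% lower), and the rises were 2 without both-drug replicate 2 or either untreated replicate. Mest, usually read from the paternal copy, had 0.562 and 0.828 CPM with both drugs, against 21.9 and 16.1 CPM in untreated cells (-4.75 ± 0.40, adjusted p = 3.8e-07). Plagl1 and Grb10 fell (-2.51 ± 0.18 and -1.25 ± 0.09). Phlda2 had 0 reads in untreated cells and 2.11 and 1.38 CPM with both drugs, at least 10.4-fold higher (adjusted p = 0.00126).

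Dnmt1, the gene of the maintenance methyltransferase that 5azadC traps, had 616 and 572 CPM with both drugs, against 675 and 659 CPM in untreated cells, and was not called (-0.17 ± 0.08, adjusted p = 0.108). Uhrf1, whose product brings it to new DNA, was not called either (adjusted p = 0.894). Tet1, one of the dioxygenase genes that act in removing methylation, had 4.92 and 3.31 CPM with both drugs and 54.2 and 54.1 CPM in untreated cells. It fell, as did Tet2 and Tet3 (-3.71 ± 0.28, -2.43 ± 0.15 and -1.27 ± 0.11). The methyltransferase gene Dnmt3a fell too (-1.15 ± 0.09, adjusted p = 2.13e-07). Among 42 genes of Polycomb and H3K9 silencing 19 fell and 5 rose (11.9% higher, 45.2% lower). Ezh1, a Polycomb methyltransferase gene of resting cells, had 15.9 and 15.3 CPM with both drugs, against 49.1 and 49.98 CPM in untreated cells (-1.67 ± 0.15, adjusted p = 5.43e-07). Ezh2, its counterpart in dividing cells, did not pass, at 60.6 and 72.0 CPM with both drugs and 75.1 and 60.2 CPM in untreated cells (adjusted p = 0.824). Suv39h2, an H3K9 methyltransferase gene, rose (1.33 ± 0.15).

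On the X chromosome the median log2 fold change was -0.13, against a range of -0.11 to 0.08 over the autosomes, and 22.0% of genes rose and 30.4% fell, against autosomal ranges of 22.4% to 34.5% and 22.5% to 33.0%. Xist had 426 and 429 CPM with both drugs, against 781 and 786 CPM in untreated cells (-0.87 ± 0.08, adjusted p = 9.96e-07), lower in both treated libraries. Among 17 regulators of X inactivation 4 rose and 6 fell (23.5% higher, 35.3% lower), near the shares of all tested genes, and rises numbered 2 without both-drug replicate 1 or untreated replicate 1. Smchd1, which helps keep X-linked CpG islands methylated, had 105 and 105 CPM with both drugs and 125 and 107 CPM in untreated cells and did not pass (adjusted p = 0.267). Of 21 genes listed as escaping X inactivation 10 fell and 4 rose (19.05% higher, 47.6% lower). Rises numbered 7 with the authors' scaling, and 1 without both-drug replicate 2 or untreated replicate 2, and falls numbered 6 without untreated replicate 1. The escape genes Kdm6a and Kdm5c, which encode histone demethylases, fell (-0.996 ± 0.12 and -0.60 ± 0.09). Other large changes on the X were rises of Dusp9 and of the phosphate regulator Phex (3.76 ± 0.55 and 2.50 ± 0.52) and falls of Capn6 and of Figf (VEGF-D) (-3.61 ± 0.24 and -3.48 ± 0.20).

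Allele counts show which X chromosome the RNA came from. Between 26.1% and 26.7% of reads in these 4 libraries could be assigned to an allele. In untreated cells Xist reads were 93.2% and 90.7% mus, while the 277 other X-linked genes with enough allelic reads gave 4.01% and 4.05% mus reads together. With both drugs that pooled share was 5.74% and 5.80% (exact Clopper-Pearson 95% intervals 5.46% to 6.03% and 5.52% to 6.08%), against 4.01% and 4.05% in untreated cells (3.83% to 4.19% and 3.82% to 4.28%). Intervals cover counting error only. Both treated libraries lay above both untreated ones, and the difference of 1.74 points is a 1.43-fold higher share. The exact permutation test over libraries, which counts both directions, gave p = 0.333, the smallest that 2 libraries against 2 allow. On autosomes the mus share was 47.9% and 47.7% with both drugs and 47.1% and 47.5% in untreated cells.

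**Figure D4:**
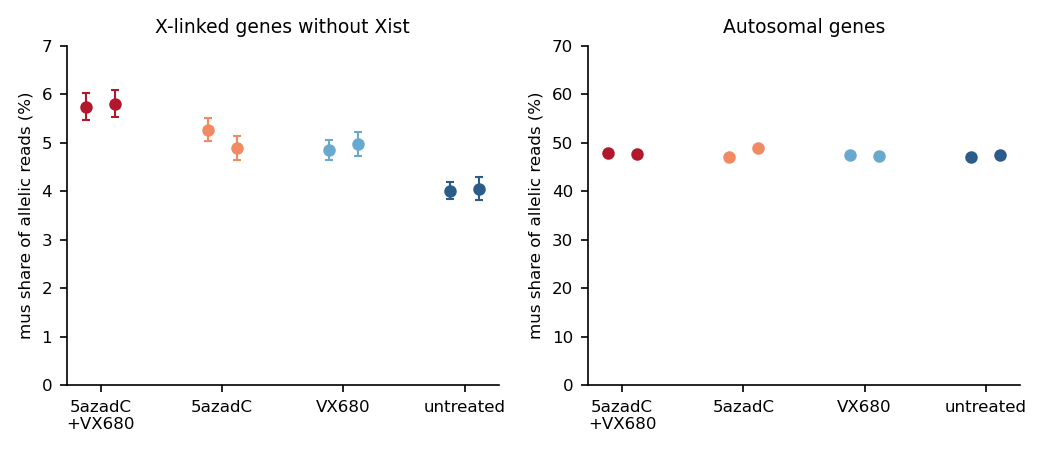
Percent of allele-assigned reads that came from the mus allele, pooled over 277 X-linked genes without Xist (left) and over autosomal genes (right), for each library in the groups 5azadC+VX680, 5azadC, VX680 and untreated. Bars are exact 95% intervals of counting error, smaller than the points on the right. The X-linked share with both drugs, 5.74% and 5.80%, lies above every other library, and untreated libraries, 4.01% and 4.05%, lie below every other library.

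With a single drug the X-linked mus share lay between those values, at 5.26% and 4.89% with 5azadC and at 4.84% and 4.96% with VX680. With both drugs it was 0.693 points higher than with 5azadC and 0.868 points higher than with VX680, with no overlap of libraries and again at the smallest possible exact permutation p of 0.333. Per 1000000 allelic reads, mus reads of X-linked genes numbered 841 and 861 with both drugs, against 616 and 592 in untreated cells (1.41-fold), and cas reads changed by a factor of 0.967. The size of the difference depended on how genes were weighted. With each gene at the same weight in all libraries, the shares were 5.26% and 5.13% with both drugs and 4.41% and 4.49% in untreated cells, a difference of 0.742 points. Among the 264 genes at most 50% mus they were 3.94% and 3.92% with both drugs and 2.78% and 2.97% in untreated cells, a difference of 1.05 points. With Xist included the difference was -0.293 points.

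Of the net gain of mus reads 66.7% lay in 4 genes. Slc25a5, the mitochondrial ADP/ATP carrier gene, held 28.6%, Msn 17.9%, Dkc1, a gene of ribosome and telomerase assembly, 10.6% and the RNA helicase gene Ddx3x 9.56%. Slc25a5 was read mainly from the mus allele in both groups, at 69.3% and 69.3% with both drugs and 81.5% and 68.6% in untreated cells, and its allele ratio was not called (adjusted p = 0.825). Ddx3x, known to escape X inactivation, had 29.3% and 29.1% mus reads with both drugs against 23.7% and 20.4% in untreated cells, and was not called either (adjusted p = 0.592). The median gene had a mus share of 0.610% with both drugs and of 0.538% in untreated cells, and 48 of 277 genes stood above 10% mus with both drugs, against 41 in untreated cells. In 30 genes, 10.8% of the 277, both treated libraries had a higher mus share than both untreated ones. In 18 genes, 6.5%, both were lower. On autosomes the shares without overlap were 17.9% higher and 18.7% lower of 10023 genes.

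Gene by gene, 2 of 277 X-linked genes had a higher mus-to-cas ratio with both drugs at an adjusted p under 0.05, which is 0.722%, beside 0.17% of autosomal genes. At an unadjusted p under 0.05 there were 19 higher and 3 lower, and after adjustment by edgeR no lower ratio passed, beside 0.329% of autosomal genes. Without both-drug replicate 1 or either untreated replicate, 1 gene was called higher, and without both-drug replicate 2 there were 3. Msn, which encodes moesin, a linker of membrane and actin, had 85 of 1856 and 76 of 1922 mus reads with both drugs (4.58% and 3.95%), against 1 of 614 and 0 of 409 in untreated cells. Over both libraries its mus share was 4.26% with both drugs and 0.0978% in untreated cells, a ratio of 43.6 with an exact 95% counting interval of 7.71 to 1732 (adjusted p of the edgeR test on the allele ratio = 6e-07). Its total level rose as well, to 1189 and 1169 CPM with both drugs against 247 and 271 CPM in untreated cells (2.19 ± 0.10). Mid1, a ubiquitin ligase gene, is on the list of genes that escape X inactivation. It had 17 of 192 and 14 of 157 mus reads with both drugs (8.85% and 8.92%) and 22 of 721 and 9 of 489 in untreated cells (3.05% and 1.84%). The change in its log2 ratio was 1.90 ± 0.47 (adjusted p = 0.0466 by edgeR). Its mus reads numbered 31 over both libraries of either group, while its cas reads numbered 318 with both drugs and 1179 in untreated cells. These counts are not scaled for depth. The libraries held 1804492 and 1815665 allelic reads with both drugs and 2983493 and 1933645 in untreated cells. The total level of Mid1 fell (-1.62 ± 0.19).

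Other X-linked genes with small p did not pass after adjustment. G6pdx, a housekeeping gene subject to X inactivation, had 12 of 75 and 11 of 72 mus reads with both drugs (16% and 15.3%), against 2 of 108 and 2 of 50 in untreated cells (1.85% and 4.00%), with an adjusted p of 0.133 by edgeR. Hcfc1, a chromatin cofactor gene, had mus shares of 5.51% and 2.01% with both drugs and 1.49% and 0.759% in untreated cells. Fhl1, a LIM protein gene of muscle, had 1.82% and 10.2% with both drugs and no mus read in 68 and 34 reads in untreated cells, which allows a share of up to 2.94% over both libraries. Genes with no mus read in any of the 4 libraries included Hprt, with 44 and 47 reads with both drugs and 21 and 10 reads in untreated cells, which allow up to 3.30% and 9.68%. Rlim, which encodes an activator of Xist, was another, with limits of 0.502% with both drugs and 0.382% in untreated cells. The mus share of Xist was 81.7% and 88.6% with both drugs, against 93.2% and 90.7% in untreated cells, lower in both treated libraries (-0.995 ± 0.19 in the log2 ratio, adjusted p = 0.00245 by edgeR). With 5azadC alone it was lower still, at 77.4% and 79.8%, a difference from both drugs that was not called (adjusted p = 0.249 by edgeR). With VX680 alone it was 90.6% and 93.2%, and the ratio with both drugs was called lower (-0.94 ± 0.21, adjusted p = 0.0341 by edgeR).

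**Figure D5:**
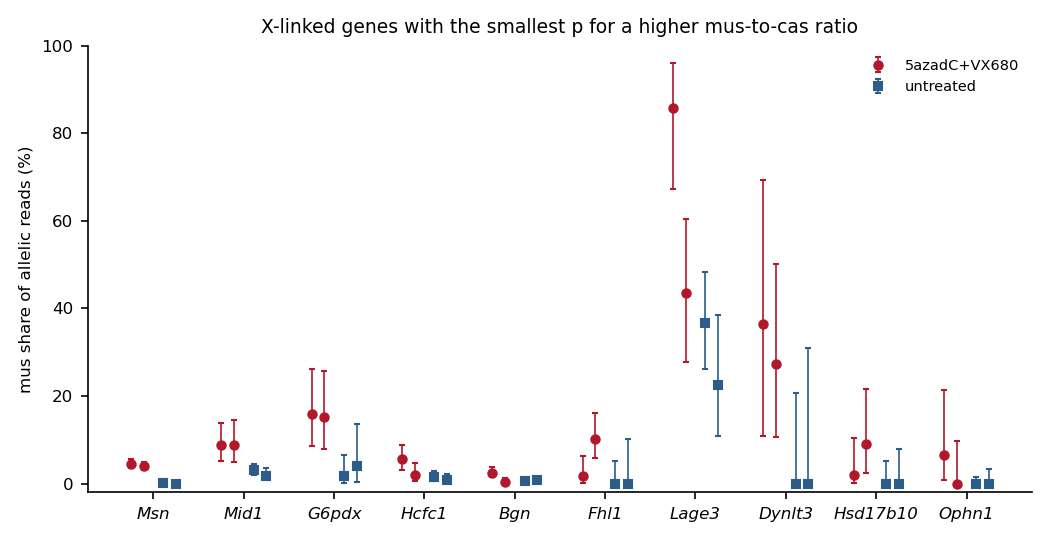
Mus share of allele-assigned reads in percent for the 10 X-linked genes with the smallest p for a higher mus-to-cas ratio with 5azadC+VX680, per library, with exact 95% intervals of counting error. Red circles are the 2 libraries with both drugs and blue squares the 2 untreated libraries. Msn and Mid1 passed the adjusted threshold, and genes with few reads, such as Dynlt3, have wide intervals.

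The same allele test was made between both drugs and each drug alone. Against 5azadC alone edgeR called no X-linked gene higher with both drugs at an adjusted p under 0.05, beside 0.0698% of autosomal genes, with 10 higher and 8 lower at an unadjusted p under 0.05. Msn had 4.58% and 3.95% mus reads with both drugs and 8.87% and 3.54% with 5azadC, whose libraries lay on either side of those of both drugs, and the difference was not called (-0.58 ± 0.22 in the log2 ratio, adjusted p = 0.666). Against VX680 alone 1 gene was called higher with both drugs, which is 0.361% of the 277, beside 0.0499% of autosomal genes. It was Msn, at 1.08% and 1.16% with VX680 (1.97 ± 0.26, adjusted p = 1.01e-05 by edgeR), and at an unadjusted p under 0.05 there were 13 higher and 6 lower. In the authors' deposited table of both drugs against untreated cells, which tests the level of each allele, 27 of 215 X-linked genes were higher and 12 lower on the mus allele at a false discovery rate under 0.05. On the cas allele the authors' deposited table has 40 higher and 49 lower. The share higher was 12.6% of X-linked and 16.8% of autosomal genes for the mus allele in the authors' deposited table, and 18.6% and 23.8% for the cas allele. The share lower was 5.58% of X-linked and 14.3% of autosomal genes for the mus allele in the authors' deposited table, and 22.8% and 15.8% for the cas allele.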

How the data were processed

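Total RNA of all 8 libraries was prepared with a directional dUTP kit, per the labels' protocols. The deposited raw counts per gene take both alleles together, and a second deposited table splits counts into mus and cas. The submitters' processing notes name build mm9, TopHat2 2.0.10, HOMER 4.8 and edgeR, without roles. The authors' normalized signal equals, tested on the values, the raw counts times 1 factor per library. Their deposited tables for both drugs against untreated hold that signal per allele, log2 fold changes and p-values with false discovery rates, per the file headers. Groups were taken from the sample titles, and every data column used was matched to a sample.

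Counts were tested with edgeR 4.0.16 in R 4.3.3: filterByExpr, TMM, 1 mean per group over all 8 libraries, so that the groups share 1 estimate of the spread, quasi-likelihood F tests and Benjamini-Hochberg adjusted p under 0.05. DESeq2 1.42.0 was an alternative. Allele ratios were fitted in edgeR to the mus and cas counts of all libraries, with 1 coefficient for each library and 1 for the mus allele in each group. This covered 10301 genes whose allelic reads averaged 10 or more per library. Where a group had 0 reads, its level was set to 3 counts for the whole group and the fold given as a bound. With 1 to 3 reads a ratio with its exact 95% interval is given. Such intervals and limits cover counting error only. The tests were checked on simulated data. There, mus shares were kept away from 0 and allelic changes were placed in genes with many allelic reads. That check therefore does not cover X-linked genes with few mus reads.

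The groups of genes and the rule for named genes were chosen with earlier results of these data known. Named were the first 12 rises and falls by log2 fold change among genes averaging 1 or more log2 CPM with no overlap, and up to 5 each on the X. Also named were the 4 list members with the smallest p, up to 3 that went the other way, uncalled members of at least 50 CPM, the 8 genes that gained and lost most CPM, 10 X-linked genes by allele ratio, and a fixed set (Xist, Hprt, Pgk1, G6pdx, Aurka, Aurkb, Dnmt1, Cdkn1a). Not every gene so named is described; some are not reported here. Col4a1, Col4a2, Col11a1, Col14a1, Fbn1, Fbn2, Ifit2, Kdm5c, Kdm6a, Lum, Krt5, Ptprc, Twist1 and Rlim were named after their values were seen. The correlation of the deviations from the group means of same-numbered libraries lay between -0.102 and 0.0508 over the 6 pairs of groups, so the numbers were not taken to pair samples.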

Additional observations from a re-analysis of the deposited data

How the results depend on the processing

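Called changes numbered 3586 higher and 3454 lower. With RLE size factors they were 3596 and 3441, with DESeq2 3286 and 3100, with no filter on low counts 3797 and 3534, and in a fit of only the 4 libraries compared 3679 and 3551. Leaving out 1 library gave 2911 to 3139 higher and 2782 to 3070 lower, and 1433 to 1540 and 1283 to 1342 at least 2-fold; a group left with 1 library was assumed to vary like the others. Of the 7040 calls, 6380 were kept by DESeq2 and 5536 to 5919 with 1 library left out. The replicate block gave 3545 higher and 3409 lower, and with the untreated numbers crossed, a setting chosen after seeing the data, 3665 and 3536. The block gave 2 X-linked genes with a higher and 0 with a lower mus-to-cas ratio against untreated. It changed no call of a named gene but those of Col5a3 and Tubb5, and its numbers are not shown to pair samples. Of the 147 called genes named, 144 kept their call in all 11 settings. Kera lost its call with DESeq2, Aurkb with 1 library left out, and Tubb5 with the authors' scaling, the block and 1 library left out. Cdkn2a gained a call with the authors' scaling, and Ifit2 and Col5a3 with no filter and in the fit of 4 libraries. Small counts in lists moved too. With the authors' scaling falls numbered 1 among smooth muscle, p53 and mitosis genes, and rises numbered 2 among genes that sense nucleic acids. With DESeq2 rises numbered 1 among small proteoglycans and DNA repair genes, and falls 1 among p53 targets. With no filter elastic fibre rises numbered 2.

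The X-linked mus share difference of 1.74 points kept its sign in all settings but 1. It was 0.765 as a mean over genes, 1.82 at 50 or more allelic reads, 1.39 without escape genes, 1.05 among genes at most 50% mus, 0.742 at fixed gene weights and 1.71 to 1.77 with 1 library left out. With Xist included it was -0.293. The number of X-linked genes with a higher ratio was 1 at 50 or more allelic reads, and 1 to 3 with 1 library left out; the cause was not tested. The allele tests rest on few mus reads: 119 of the 277 X-linked genes had no mus read in untreated cells.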

Other observations

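Allele ratios were also called on autosomes, where mus and cas reads are both common when pooled, though not in every gene. Of 10023 autosomal genes 17 had a higher mus-to-cas ratio with both drugs than in untreated cells (0.17%) and 33 a lower one (0.329%), by edgeR at an adjusted p under 0.05. The genes given here were chosen after their values were seen. Lrp1, an endocytic receptor gene, had 13.1% and 11.98% mus reads with both drugs, against 7.21% and 5.32% in untreated cells (change in the log2 ratio 1.10 ± 0.11, adjusted p = 1.68e-08). Several matrix genes whose total fell were among them. The mus share of Lox was 37.6% and 35.4% with both drugs and 49.2% and 48.2% in untreated cells (-0.72 ± 0.08, adjusted p = 1.68e-08). Postn went the other way, with 55.5% and 54.8% mus reads with both drugs and 36.4% and 38.1% in untreated cells, and so did the proteoglycan gene Vcan, with 57.5% and 54.9% against 39.0% and 38.9%.

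Ptx3, which encodes a soluble pattern recognition protein, had 37.1% and 39.2% mus reads with both drugs, against 63.1% and 64.5% in untreated cells (-1.52 ± 0.16, adjusted p = 3.11e-08). Ifit2, the interferon-stimulated gene whose total did not pass, had 66.7% and 68.9% mus reads with both drugs, against 97.4% and 98.3% in untreated cells (-4.22 ± 0.67, adjusted p = 0.000126). These Ifit2 shares rest on few reads. There were 11 and 23 cas beside 22 and 51 mus reads with both drugs, and 4 and 1 beside 149 and 58 in untreated cells. In all 6 genes the libraries of the groups did not overlap, which picking them among called genes made likely. Over the 10023 autosomal genes, the mus shares without overlap were 17.9% higher and 18.7% lower.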
